A study of Mus musculus with 3 samples.

Results

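The 10 genes described here encode proteins of the fibrous sheath and the outer dense fibres of the sperm tail: Akap3, Akap4, Fsip1, Fsip2, Ropn1, Ropn1l, Odf1, Odf2, Odf3 and Odf4. They were chosen by symbol, and all 10 were found among the 32285 genes of the deposited tables. The study set single testis cells of Tex10 conditional knockout mice against those of wildtype mice, all adult. Tex10 encodes a nuclear protein. The wildtype group was 2 libraries of 1 mouse each (wildtype replicate 1 and wildtype replicate 2), and the knockout group was 1 library that pooled 2 mice. Every library carried the strain label C57BL/6N, and the labels used here name neither the Cre line, nor the deleted exons, nor the genotype of the wildtype mice at a Cre locus.

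The tail of a mouse sperm is built around a microtubule core. Outer dense fibres run along that core through the middle piece and the principal piece and stiffen it. The fibrous sheath wraps the principal piece with longitudinal columns and ribs, and it holds protein kinase A and enzymes of glycolysis close to the motor. Messenger RNAs for proteins of the tail are often made before the protein is needed and stored before they are translated, since the condensing nucleus of the elongating spermatid falls silent.

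The AKAP3 and AKAP4 proteins are the main scaffold of the sheath, and the promoters of their genes are shown because they share a stretch of sequence. Of the 10 genes, 8 had a promoter entry in the RefSeq table of mouse build GRCm38.p6. Each sequence below is the 250 bases before an annotated start, on the plus strand, 5′ to 3′. The Akap3 stretch is chr6:126852848-126853097 and the Akap4 stretch is chrX:7067265-7067514. Capitals mark the word that both share.
Akap3: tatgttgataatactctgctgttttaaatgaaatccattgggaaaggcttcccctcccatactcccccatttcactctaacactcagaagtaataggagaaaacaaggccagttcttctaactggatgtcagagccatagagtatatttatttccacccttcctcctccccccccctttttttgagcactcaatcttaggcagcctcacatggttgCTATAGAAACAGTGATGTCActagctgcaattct
Akap4: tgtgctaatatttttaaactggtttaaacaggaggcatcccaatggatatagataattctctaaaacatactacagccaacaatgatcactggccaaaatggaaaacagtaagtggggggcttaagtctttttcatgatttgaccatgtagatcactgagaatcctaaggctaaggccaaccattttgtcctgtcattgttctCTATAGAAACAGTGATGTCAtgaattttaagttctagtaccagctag
The shared word, CTATAGAAACAGTGATGTCA, has 20 bases, and its first base lies 34 bases before the Akap3 start and 47 bases before the Akap4 start. It was found in 2 of 32851 promoter windows of 300 bases searched on both strands, those of Akap3 and Akap4. The next longest word shared by windows of 2 different members had 14 bases. The search for shared words was added after the sequences had been seen. It describes the letters only.

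The other motifs were searched in the same windows, of which the 8 genes had 12. The full cAMP response element TGACGTCA was in 0 of the 8 genes' windows and in 1.79% of all windows, and TGACGTAA was in 0 of them and in 0.499%. The shorter element TGACG, which is contained in both, was found in Fsip2 and Odf2 and in 20.8% of all windows. GTTGCC, part of the X-box bound by RFX factors, was found in Odf3 and Ropn1l and in 12.5% of all windows. The SOX core ACAAT was found in Akap4, Odf3 and Ropn1l and in 31.02% of all windows. A match is a description and shows no binding.

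The 3 libraries held 93418341 to 147783171 UMIs (unique molecular identifiers, each counted as 1 captured RNA molecule), and 7483, 7670 and 11053 barcodes were kept. Values are given in 1 order throughout: the first wildtype library, the second, then the knockout library. Clusters of few UMIs held 4053, 2989 and 6994 of the kept barcodes and were kept apart. The named classes used here were late spermatocytes (572, 688 and 511 cells), round spermatids (484, 845 and 702) and elongating spermatids (1431, 1994 and 1715). Between 20 and 24 barcode sequences were shared by any pair of libraries. The targeted gene, Tex10, stood at 26.9, 25.9 and 18.6 UMIs per 1000000 UMIs of the class (CPM) in round spermatids and at 57.1, 57.2 and 49.0 CPM in late spermatocytes. It was lowest in the knockout library in both, but edgeR's quasi-likelihood test on all cells of the class did not call either difference (adjusted p = 0.145 and 0.16). With stage-matched bins, a refit explained below, edgeR called Tex10 lower in both. The log2 fold changes were -0.43 in round spermatids (edgeR adjusted p = 0.00673) and -0.25 in late spermatocytes (edgeR adjusted p = 0.0233). In elongating spermatids neither fit called Tex10, with log2 fold changes of -0.49 for all cells of the class and -0.63 with stage-matched bins. The deleted exons are not named, so a count at the 3′ end may not see the deletion.

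Cells of the 3 classes were placed in 1 order from late spermatocytes to elongating spermatids, with the 10 genes and 45 related flagellum genes left out of the genes that set the order. A position is the share of cells passed, from 0 to 1, with the libraries weighted equally, and it was divided into 20 bins of 82 to 229 cells per library. Round spermatids lay mainly between positions 0.2 and 0.4 and elongating spermatids after them. The onset of a gene is the position at which its CPM first reached 50% of its highest bin. The landmark genes had mean onsets of 0.189 for Acrv1, an acrosome gene, of 0.398 to 0.411 for the transition protein genes Tnp1 and Tnp2 and the protamine gene Prm1, and of 0.548 for the protamine gene Prm2. These landmarks were also among the markers that named the classes.

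Among the scaffold genes of the sheath, Akap3 came first. Akap3 reached 50% of its highest level at 0.247, 0.263 and 0.257, in round spermatids, and its highest bin (422, 470 and 486 CPM) lay at position 0.425 in every library. By 0.540, 0.517 and 0.553 it was back below 50%. Akap4, which encodes the most abundant sheath protein and lies on the X chromosome, reached 50% at 0.445, 0.438 and 0.456. Akap4 went on rising to 1781, 1698 and 2170 CPM at positions 0.975, 0.925 and 0.925. Its lowest bins, among late spermatocytes, held 11.8, 12.2 and 9.09 CPM, so the scaffold pair was separated in onset by far more than the spread between libraries and Akap4 was still high where Akap3 had gone.

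Ropn1 and Ropn1l encode ropporin and a close relative, which carry a domain like that of the regulatory subunit of protein kinase A and bind to the anchoring proteins. They did not follow one course. Ropn1l stood at 2968 and 3000 CPM in the first bin of the wildtype libraries, among late spermatocytes, and was therefore at 50% of its highest level at or before that bin in every library. It fell below 50% at 0.461, 0.457 and 0.462. Ropn1 had its onset at 0.294, 0.277 and 0.287, reached 2116, 1900 and 2015 CPM, and left 50% only at 0.712, 0.703 and 0.718. The later of the pair thus came up in round spermatids and lasted into elongating spermatids.

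Fsip1 and Fsip2 encode fibrous sheath interacting proteins, and both were genes of the early part of the order. Fsip2 was at 50% of its highest level in the first bin of every library, while Fsip1 reached 50% at 0.153, 0.154 and 0.153. The highest bin of both lay at 0.275 by CPM, with 533, 541 and 449 CPM of Fsip1 and 407, 411 and 444 CPM of Fsip2. Fsip1 fell below 50% at 0.347, 0.347 and 0.342 and Fsip2 at 0.347, 0.350 and 0.345. By CPM this was before the onset of Akap4 in every library. The onset of Akap4 by UMIs per cell, given below, was earlier than by CPM.

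The outer dense fibre genes were spread over the whole order. Odf4 was above 50% in the first bin and changed least, with its highest bin 2.42, 2.10 and 2.22 times its lowest. Odf3 had a narrow profile, with an onset at 0.258, 0.249 and 0.257, a highest bin of 578, 575 and 627 CPM at 0.325, and an end at 0.479, 0.468 and 0.471. Odf2, whose product is also a part of the centrosome, was present from the first bin (738, 792 and 805 CPM) and reached 50% at 0.467, 0.451 and 0.450. The highest bin of Odf2 lay at 0.875, 0.925 and 0.825 (6436, 6492 and 6346 CPM), and the last bin held 4765, 5280 and 5189 CPM. Odf1, which encodes a main protein of the fibres, was the last, at 0.758, 0.671 and 0.758, and its highest bin was the last bin of the order in every library (1456, 1133 and 1094 CPM). The rise of Odf1 was gradual: it reached 10% of its highest level at 0.197, 0.165 and 0.169. With onset set at 10%, Odf1 was not the last: its mean of 0.177 came before those of Odf3 (0.179) and Akap4 (0.230), and Odf2 was in the first bin.

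**Figure D1:**
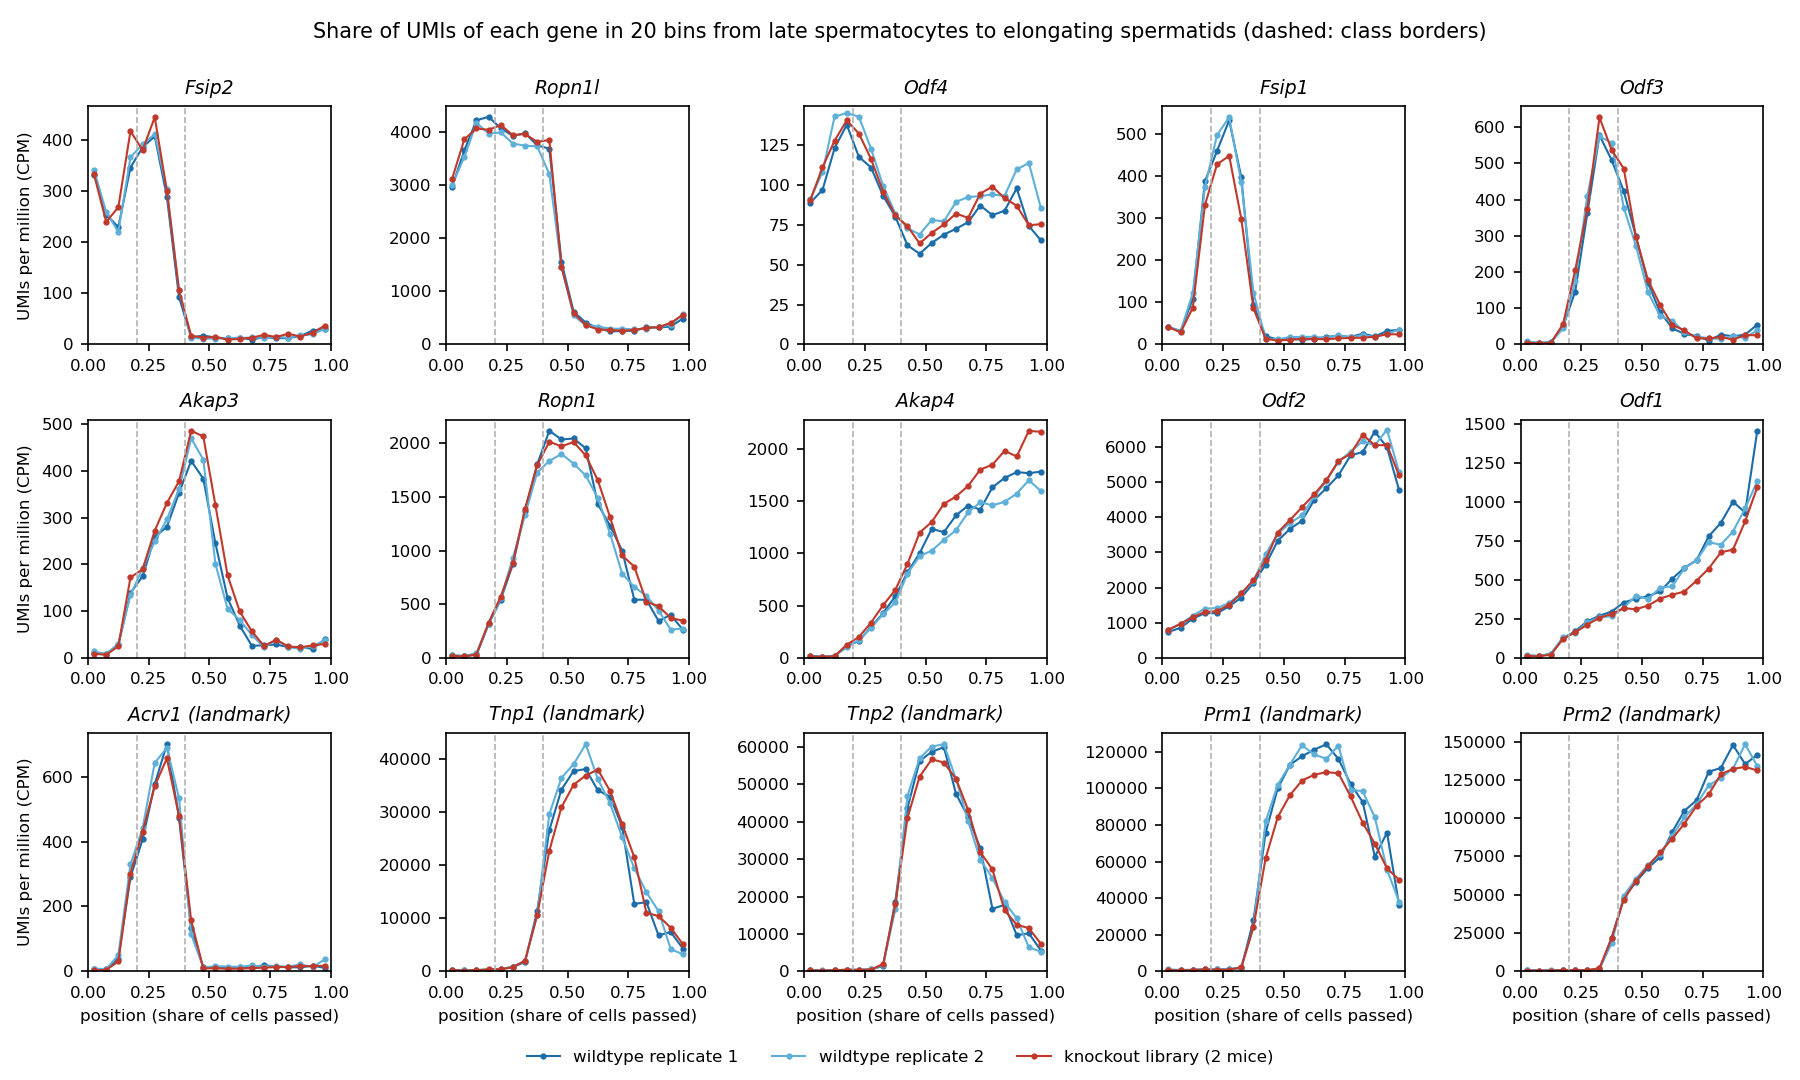
Level in UMIs per 1000000 (vertical axis, CPM) of the 10 genes and 5 landmark genes against position (horizontal axis, share of cells passed from late spermatocytes to elongating spermatids), 1 line per library with 1 point per bin. Fsip1 and Fsip2 fall before position 0.4 while Akap4, Odf2 and Odf1 are still above 50% of their highest bin in the last bin, and the lines of the 3 libraries share these shapes.

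Over all 10 genes the order of mean onset was Fsip2, Ropn1l and Odf4 (at or before the first bin, 0.025), Fsip1 (0.154 ± 0.000698, SD, n = 3 libraries), Odf3 (0.255 ± 0.00499), Akap3 (0.256 ± 0.00819), Ropn1 (0.286 ± 0.00828), Akap4 (0.447 ± 0.00909), Odf2 (0.456 ± 0.00946) and Odf1 (0.729 ± 0.0502). Of the 45 pairs of genes, 40 stood in the same order in all 3 libraries. Neighbours not separated by more than the larger SD were Odf3 and Akap3, Akap4 and Odf2, and the 3 genes at the first bin. An early onset was common among all genes: 3 of the 10 genes were at 50% in the first bin of every library, against 2912 of 5579 genes with at least 50 CPM in a bin of every library (52.2%). The median onset was 0.255 for the 10 genes, 0.025 for all 5579 genes and 0.204 for the 36 related flagellum genes of that level. The onset of Odf1 moved with the ordering, to 0.378 when cells were ordered by the first principal component and to 0.492 with coarser clusters, and to 0.646 with the last bin left out. Odf2 came after it with the coarser clusters (0.497), and Odf2 (0.414) and Akap4 (0.420) did with the principal component. With the clusters of few UMIs included, the means of Akap3, Odf3 and Ropn1 moved to 0.596, 0.586 and 0.614, and those of Akap4, Odf2 and Odf1 to 0.720, 0.748 and 0.866. Fsip2 was then in the first bin in the second wildtype library only (0.376, 0.025 and 0.410).

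CPM is a share of a cell's UMIs, and the UMIs per cell fell along the order. They were 61326, 41302 and 65875 in the first bin and 4995, 4697 and 8749 in the last. Counted as mean UMIs per cell, the onsets of the late genes moved forward. Odf1 reached 50% of its highest UMIs per cell at 0.217, 0.226 and 0.216, in early round spermatids and before Akap3 (0.233, 0.244 and 0.235). Akap4 did so at 0.285, 0.311 and 0.295, and Odf2 in the first bin or just after it (mean 0.0268). Odf3, Ropn1 and Fsip1 moved little, to means of 0.262, 0.273 and 0.155, and 38 of 45 pairs kept 1 order in all libraries. Fewer RNA molecules captured per cell and less RNA in a cell cannot be told apart.

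**Figure D2:**
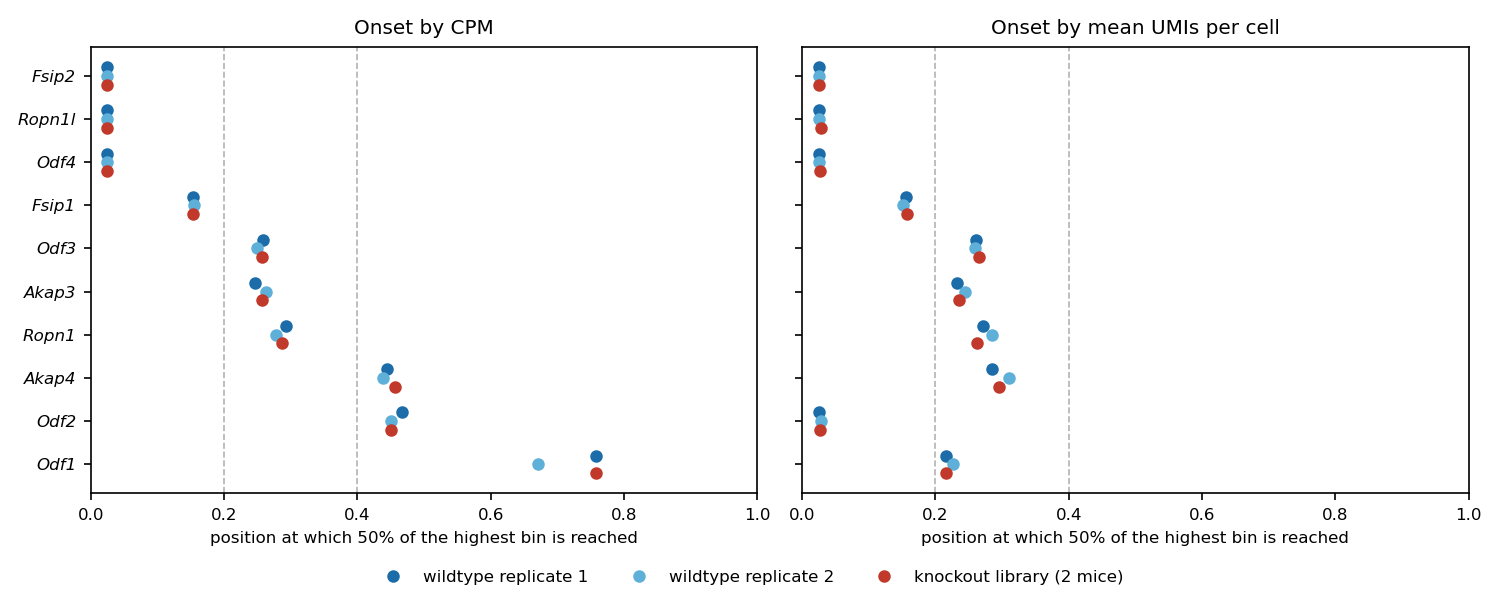
Position (horizontal axis) at which each of the 10 genes (vertical axis) reached 50% of its highest bin, by CPM on the left and by mean UMIs per cell on the right, 1 point per library. By CPM Odf1 is last at a mean of 0.729, and by UMIs per cell it lies at 0.220, before Akap4 at 0.297.

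The genes differed in how much of their highest UMIs per cell was left in the last bin. Odf1 held 9.36, 7.80 and 11.8 UMIs per cell in its highest bin and 7.27, 5.32 and 9.57 in the last, which was 77.7%, 68.2% and 80.8%. Akap4 held 41.3%, 39.4% and 52.7%, and Odf2 held 34.0%, 36.0% and 41.1%. The other 7 genes held 6.25% or less. Thus 3 of the 10 genes held at least 25% in every library, against 251 of 5579 genes (4.50%), whose medians were 1.09%, 1.46% and 1.37%. The limit of 25% was set after these values had been seen. Odf1 and Akap4 also had the most similar profiles among the 45 pairs, with a mean Pearson r of 0.980 over the 20 bins, given as a description because bins of a library share its cells and depth.

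**Figure D3:**
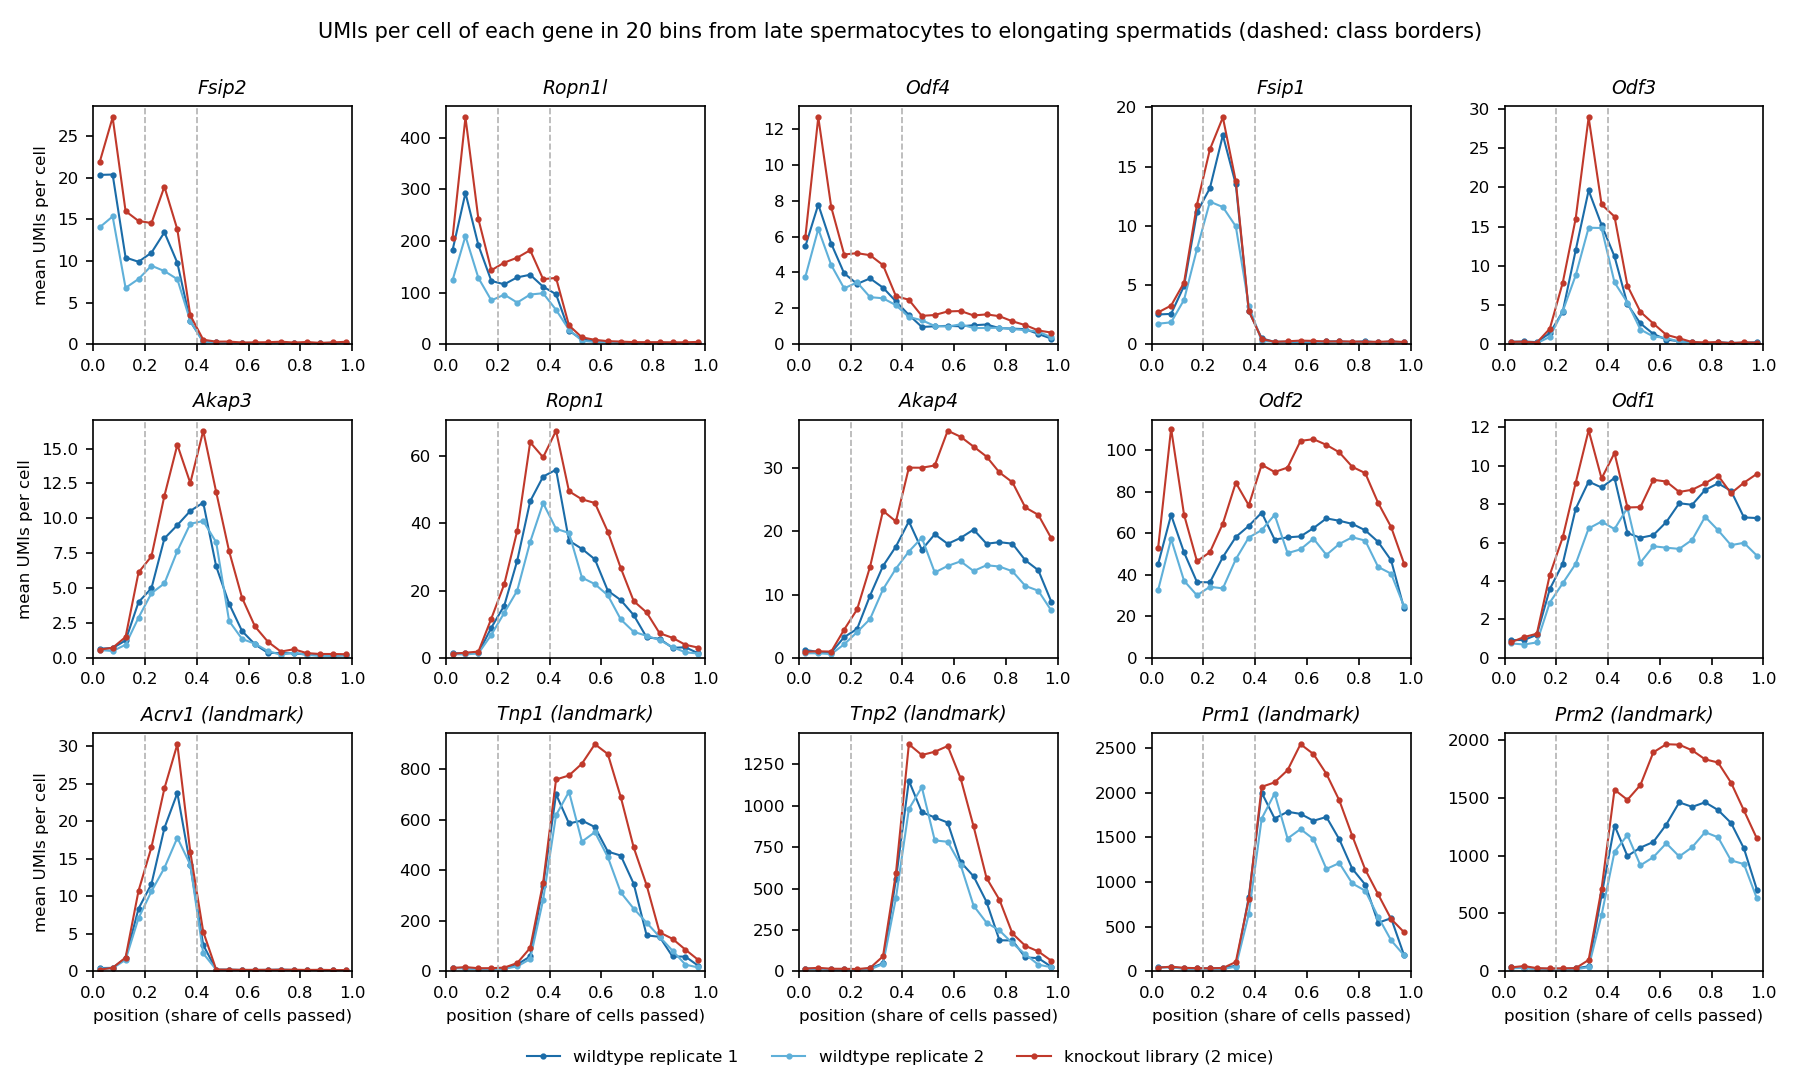
Mean UMIs per cell (vertical axis) of the same genes against position (horizontal axis), 1 line per library with 1 point per bin. Odf1 stays near a level once reached and holds 77.7%, 68.2% and 80.8% of its highest bin in the last bin, and the highest bin of each of the 10 genes is highest in the knockout library, which had more UMIs per cell.

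Free RNA from broken cells gives UMIs in every droplet, and peritubular myoid cells, smooth-muscle-like cells around the tubule, served as the background. There were 94, 94 and 87 of them, with a median depth of 6006.5, 5275.5 and 7252 UMIs, against 10615, 8262 and 15979 in elongating spermatids. Late spermatocytes were deeper, at a median of 48756.5, 27386.5 and 66934 UMIs. The same number of free UMIs makes a smaller CPM in deeper cells. A level below the myoid one there does not by itself show that a gene is absent. Akap4 stood at 101, 85.8 and 95.3 CPM in myoid cells, against 412, 358 and 488 CPM in round spermatids and 1348, 1264 and 1570 CPM in elongating spermatids. Odf4 had the lowest background, 8.82, 8.58 and 24.2 CPM, against 107, 116 and 111 CPM in late spermatocytes. In late spermatocytes 5 of the 10 genes (Akap3, Akap4, Ropn1, Odf1 and Odf3) were below their myoid level in every library, and these class levels are not read as expression. In the last of the 4 bins of these cells Ropn1 stood at 313, 319 and 328 CPM, above its myoid level of 139, 152 and 158 CPM. Akap4 stood in that bin at 114, 99.6 and 125 CPM, also above its myoid level in every library. In round spermatids 0 of the 10 were below their myoid level in every library. In elongating spermatids Fsip1 (17.4, 18.3 and 13.6 CPM, against 42.3, 34.3 and 25.9 in myoid cells) and Fsip2 were below it.

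Shares of cells with a UMI were compared after every cell was thinned to 2000 UMIs, which left out 85 or fewer cells of a class in a library. Akap4 was detected in 90.6%, 91.1% and 92.6% of thinned elongating spermatids and in 16.0%, 13.6% and 19.8% of thinned myoid cells. Without thinning these shares were 99.2%, 98.3% and 99.5%, and 44.7%, 29.8% and 51.7%. Odf1 was detected in 72.2%, 70.6% and 63.6% of thinned elongating spermatids, against 16.0%, 19.3% and 16.3% of myoid cells. Fsip1 was detected in 6.1%, 4.2% and 4.3% of thinned elongating spermatids, against 8.5%, 4.5% and 5.8% of myoid cells, which is background. The exact Clopper-Pearson 95% interval of Odf1 was 61.3% to 65.9% in the knockout elongating spermatids and 68.5% to 72.6% in those of the second wildtype library. That of Fsip1 in myoid cells ran from 1.25% to 11.2% in the second wildtype library, which is wider because it has fewer cells. Such intervals cover the sampling of cells within a library and not the spread between mice. They are no test of knockout against wildtype.

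**Figure D4:**
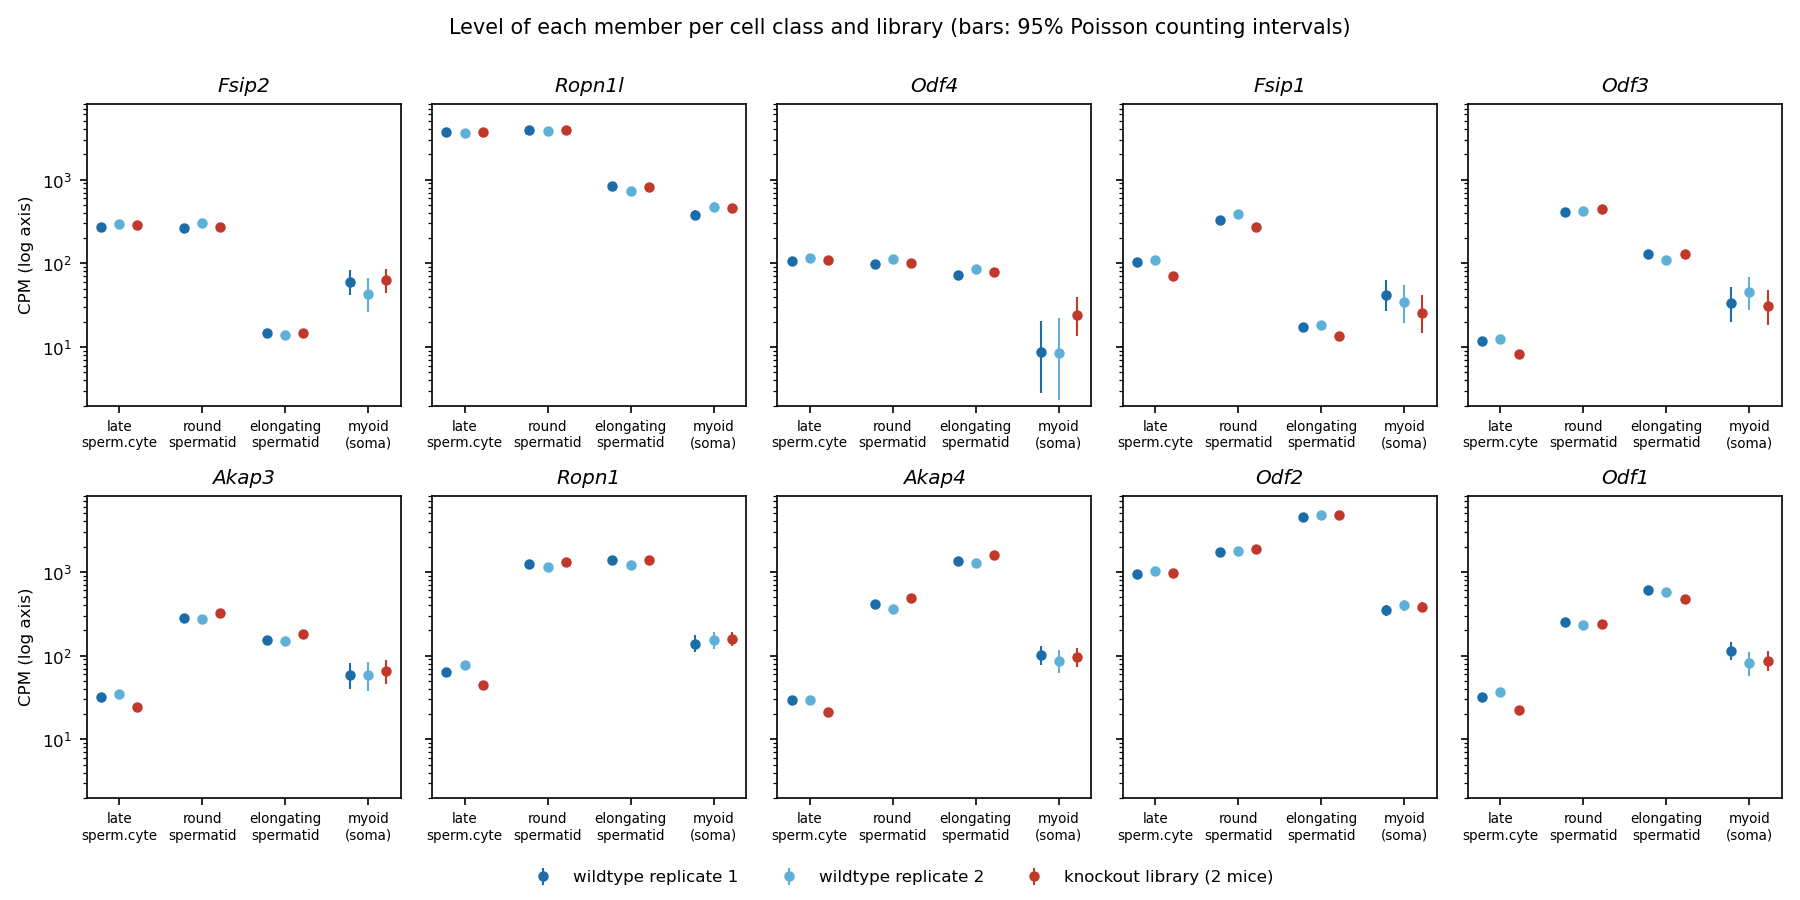
Level of each of the 10 genes (vertical log axis, CPM) in late spermatocytes, round spermatids, elongating spermatids and peritubular myoid cells, 1 point per library with 95% Poisson intervals that cover counting error only. The myoid points show the free RNA background, above which Fsip1 and Fsip2 do not rise in elongating spermatids.

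The genes whose profiles over the 20 bins were most like a member's were taken from 5569 genes, by the mean Pearson r of log2(CPM + 1) over the 3 libraries. For Akap3 they were Tssk1, a testis-specific kinase gene (r = 0.989) that is also in the related list, and Cacul1 (0.975), and for Akap4 they were Vsig1 (0.998) and Vasp (0.996). For Odf1 they were Acsl1 (0.997) and Bcl2l14 (0.996), and for Odf2 they were Plekhh2 (0.986) and 1700001O22Rik (0.983). Odf3 was most like 1700029N11Rik and 1700093K21Rik (both 0.978), and Odf4 most like Ppm1g (0.921) and Lin7a (0.920). Ropn1 was most like Ica1 (0.997) and Capza3 (0.995), Ropn1l most like Mrpl57 (0.991) and Cmtm2a (0.985). Fsip1 was most like Tmem243 (0.980) and Gnpda2 (0.969), and Fsip2 most like Mrpl20 and Tomm20 (both 0.989). A likeness of profile is a description and shows no shared role.

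The order of onset in the knockout library was that of the wildtype libraries except between neighbours that were not separated. The onset of Akap4 in the knockout library differed from the wildtype mean by 0.0146 and that of Odf3 by 0.00341, while the wildtype libraries differed from each other by 0.00681 and 0.00918. The onset of Odf1 differed by 0.0437, within the gap of 0.0869 between the wildtype libraries. The difference of Akap4 was thus larger than the wildtype gap and those of Odf3 and Odf1 smaller, with 1 knockout library and no replicate check of it.

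Levels between the groups were tested with edgeR's quasi-likelihood test on UMIs summed per library and class. The spread comes from the 2 wildtype libraries, and the lone knockout library is assumed to vary like them. In elongating spermatids Odf1 fell. It stood at 600.2 and 576.3 CPM in the wildtype libraries and at 475.6 CPM in the knockout library, which lay below both. The log2 fold change was -0.37 (SE 0.091, adjusted p = 0.00347 by edgeR), and Odf1 was below both wildtype libraries in all 11 bins of elongating spermatids, as were 118 of 5579 genes (2.12%). Over the whole order Odf1 was below both in 18 bins and within their range in 2. In the first 3 bins, of late spermatocytes, it stood at only 9.47 to 26.4 CPM. The log2 ratios of the knockout library to the wildtype mean there were -0.41, -0.27 and -0.31, with 1 CPM added. A lower share of Odf1 was thus not limited to elongating spermatids. The elongating class was not made of the same clusters in both groups: cluster 16 held 266, 434 and 12 of its cells and cluster 7 held 192, 254 and 520. Odf1 was lowest in the knockout library in 6 of the 6 clusters, including cluster 7 (467, 464 and 368 CPM). With clusters 7 and 16 left out, which was added once their cell numbers had been seen, the log2 fold change was -0.47 (edgeR adjusted p = 0.000686). The cells left, 973, 1306 and 1183, were also spread unevenly. Cluster 8, with Odf1 at 380, 349 and 332 CPM, held 256, 238 and 406 of them. Cluster 15, with Odf1 at 1733, 1560 and 1357 CPM, held 211, 301 and 209. The part of this mix in the value of -0.47 was not tested. Odf1 rises with position, and the 95th percentile of position was 0.957 in the knockout library against 0.975 and 0.977. With stage-matched bins, in which each library gives the same number of UMIs to each of 10 position bins of the class, the log2 fold change was -0.33 (edgeR adjusted p = 0.00313). Over the other refits the adjusted p ran from 0.00017 to 0.0414. The protamine gene Prm1 was also lower in the class (-0.20, SE 0.065, edgeR adjusted p = 0.0381), and its part in the difference of Odf1 was not tested. The fall is one of share: counted per cell, Odf1 in the last bin stood at 7.27 and 5.32 UMIs in the wildtype libraries and at 9.57 in the knockout library, which had more UMIs per cell in that bin (8749 against 4995 and 4697).

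Fsip1 was also called in elongating spermatids (log2 fold change -0.45, SE 0.14, edgeR adjusted p = 0.0231), but there it lay below the myoid level, and the DESeq2 Wald test did not call it (adjusted p = 0.672). The myoid level of Fsip1 was itself lowest in the knockout library. Akap4, at 1348, 1264 and 1570 CPM, was higher in the knockout library than in both wildtype libraries, and above both in 11 of the 11 elongating bins and 5 of the 6 clusters, but the difference was not called (log2 fold change 0.21, SE 0.085, edgeR adjusted p = 0.14). Akap3 likewise stood at 153, 151 and 181 CPM (0.19, SE 0.096, edgeR adjusted p = 0.276), and passed the threshold with clusters 7 and 16 left out (0.38, edgeR adjusted p = 0.0179). Akap3 was above both wildtype libraries in 8 of the 11 elongating bins and below both in 1. Unlike Akap4, it was above both in only 1 of the 6 clusters, and below both in 1. In cluster 8, where it was highest, Akap3 stood at 425, 481 and 471 CPM. That cluster held 256, 238 and 406 of the 973, 1306 and 1183 cells left without clusters 7 and 16. The part of this mix in the value of 0.38 was not tested. The remaining 6 genes had log2 fold changes between -0.06 and 0.04. In all, 2 of the 10 genes were lower and 0 higher, where 3.90% of the 13500 genes tested were lower and 3.72% higher, 7.62% in all. The median log2 fold change was -0.02 for the 10 genes and 0.0043 for all genes.

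In round spermatids 0 of the 10 genes were called by edgeR, against 2.41% of 15914 genes (1.13% higher and 1.28% lower), and 2 of the 10 had an unadjusted p under 0.05, as had 2389 of all genes. DESeq2 also called 0 of the 10. Fsip1, which is well above background in this class, stood at 333 and 386 CPM in the wildtype libraries and at 273 CPM in the knockout library. Its log2 fold change of -0.37 (SE 0.11, edgeR adjusted p = 0.14) missed the threshold. The same difference passed it without a filter on low counts (-0.37, edgeR adjusted p = 0.0229) and with stage-matched bins (-0.24, edgeR adjusted p = 0.0219). Akap4 stood at 412, 358 and 488 CPM (0.36, SE 0.12, edgeR adjusted p = 0.21) and passed only without the filter (edgeR adjusted p = 0.0155). The value was 0.17 with stage-matched bins (edgeR adjusted p = 0.146), and 0.24 without wildtype replicate 2 and 0.50 without wildtype replicate 1. The median position of round spermatids was 0.320, 0.295 and 0.333, and Akap4 rises across this class. Odf1, which was lower in elongating spermatids, stood at 254, 232 and 240 CPM here, with the knockout library between the wildtype libraries. Within clusters, the knockout library was below both wildtype libraries in 3 of the 4 round clusters and above both in 0. In cluster 17 Odf1 was highest, at 312, 271 and 288 CPM, and that cluster held 36.0%, 24.0% and 43.9% of the class. With stage-matched bins the log2 fold change of Odf1 was -0.041 (edgeR adjusted p = 0.846).

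**Figure D5:**
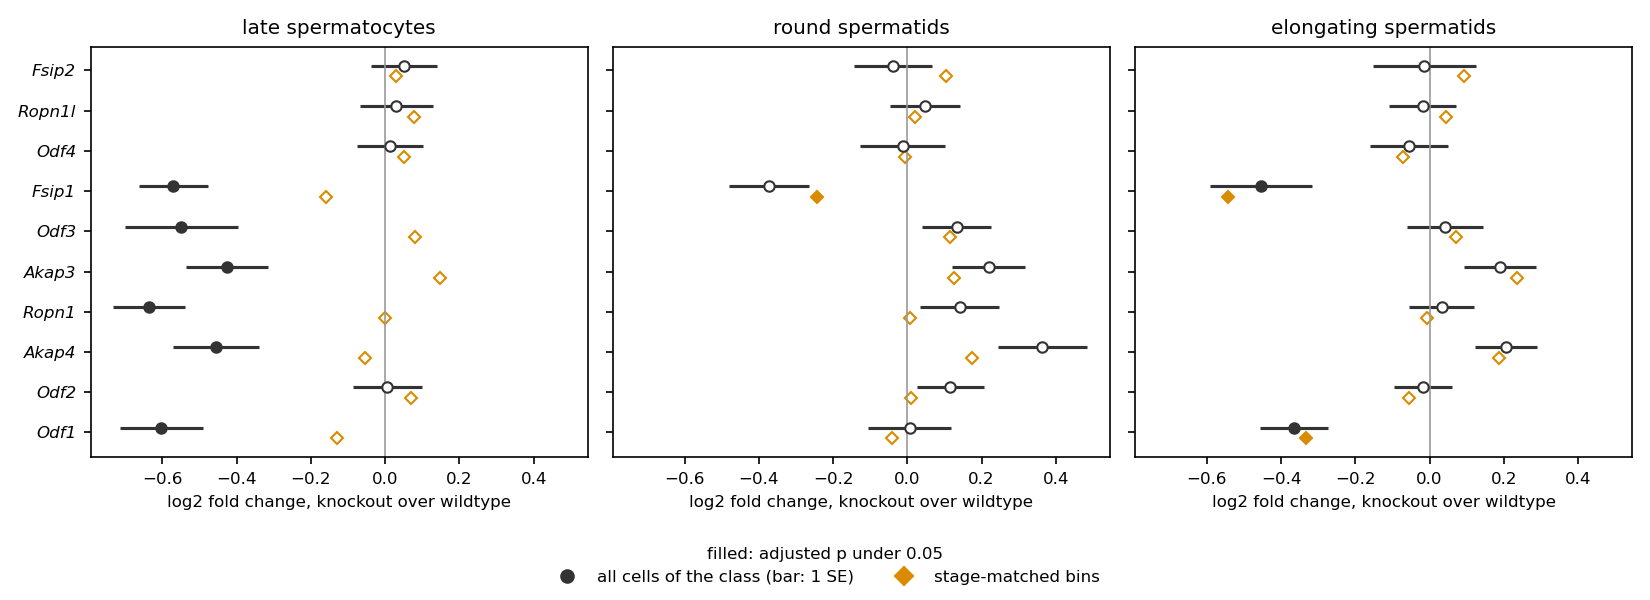
Log2 fold change of the knockout library over the wildtype libraries (horizontal axis) for the 10 genes (vertical axis) in 3 cell classes, as circles with bars of 1 SE for all cells of the class and as diamonds for stage-matched bins, filled where the edgeR adjusted p is under 0.05. Odf1 and Fsip1 are filled in elongating spermatids with both, Fsip1 in round spermatids has a filled diamond only, and the 6 filled circles of late spermatocytes have no filled diamond.

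In late spermatocytes 6 of the 10 genes were called lower in the knockout library by edgeR, against 10.0% of 15992 genes, and 0 were called higher, against 5.17% (15.2% in either direction). They were Akap3, Akap4, Fsip1, Ropn1, Odf1 and Odf3, with log2 fold changes of -0.43 to -0.64. All of these except Fsip1 were below their myoid level, and all 6 were highest in the last of the class's 4 position bins in every library. Knockout cells of the class lay earlier, with a median position of 0.0818 against 0.109 and 0.106. With stage-matched bins 0 of the 6 were called, and Akap3 (0.15) and Odf3 (0.082) changed sign. Fsip1, the exception, stood at 103, 110 and 70.3 CPM, and its log2 fold change went from -0.57 (SE 0.092, edgeR adjusted p = 2.84e-08) to -0.16 (edgeR adjusted p = 0.127). The median log2 fold change was -0.44 for the 10 genes and -0.0099 for all genes.

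By a rule of size without a test (a log2 ratio of at least 1 against both wildtype libraries, and 2 times the gap between them), 0 of the 10 genes passed in any of the 3 classes, against 1.31% of 3124 genes in elongating spermatids, 1.20% in round spermatids and 0.827% in late spermatocytes. The difference of greatest size among the 30 fitted was that of Ropn1 in late spermatocytes, -0.64.

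The related flagellum genes were a list of sheath enzymes, fibre-associated proteins, protein kinase A subunits and mitochondrial sheath genes, 45 of which were in the tables. In elongating spermatids 1 of 42 tested was higher and 0 were lower by edgeR, against 3.72% and 3.90% of all genes. In round spermatids 1 of 44 was higher and 0 were lower, against 1.13% and 1.28%. It was Odf3b, a relative of Odf3, in both classes. Odf3b stood at 60.1, 70.4 and 87.9 CPM in elongating spermatids (log2 fold change 0.37, SE 0.10, edgeR adjusted p = 0.0114). In round spermatids it stood at 9.58, 7.22 and 16.9 CPM (1.05, SE 0.20, edgeR adjusted p = 0.0426). The knockout library lay above both wildtype libraries in each. The onset of Odf3b, at 0.404, 0.401 and 0.396, is at the late edge of the round class, in which knockout cells lay later. With stage-matched bins Odf3b was not called in either class, at 0.35 in round spermatids (edgeR adjusted p = 0.206) and 0.26 in elongating spermatids (edgeR adjusted p = 0.073). Its myoid level was 0, 2.14 and 1.62 CPM. In late spermatocytes 13 of 44 were lower and 0 higher, against 10.0% and 5.17% of all genes, with the earlier positions given above, and with stage-matched bins 0 were lower and 5 higher, against 6.68% and 6.27%. The median log2 fold changes of the list were -0.0012, 0.088 and -0.087 in elongating spermatids, round spermatids and late spermatocytes.

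The files give genes by Ensembl identifier. On GRCm38, by GENCODE M21, Akap3 (ENSMUSG00000030344) lies on chromosome 6 from 126853098 to 126874308, Akap4 (ENSMUSG00000050089) on chromosome X from 7067519 to 7078609, and Odf1 (ENSMUSG00000061923) on chromosome 15 from 38219203 to 38226735, all on the plus strand and all protein-coding. Fsip1 (ENSMUSG00000027344) is read from the minus strand, on chromosome 2 between 118130424 and 118256966, and shares 133 exon bases with Gm29232 on the same strand, so reads there could belong to either gene. Of the 3′ ends, where this assay counts, 0% of the 31-base words of 9 members occurred in another gene's transcripts and 0.213% of those of Odf2.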

How the data were processed

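Single-cell 3′ RNA libraries (10x Genomics) of 3 testis samples were deposited by the authors as raw UMI counts per gene and barcode. Per the submitters' processing notes, Cell Ranger 4.0.0, Seurat 4.0.5 and build mm10 were used. The annotation, the use of strand and the cell calling are not given in the sources used here. Genes and positions were matched by Ensembl identifier to GENCODE M21, and promoters to RefSeq by symbol.

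Barcodes with at least 1000 UMIs, 500 genes and at most 10% mitochondrial UMIs were kept. Scrublet's own threshold marked 0, 1 and 0 barcodes, which is under 0.5%, so in each library the 8% of barcodes that scored highest were removed. Cells were clustered with scanpy 1.11.5 (2000 variable genes, 30 components, 15 neighbours, leidenalg 0.10.2 at resolution 2) and named from marker genes, so a class is marker-defined and may differ from the study's. Clusters with a median UMI total under 3 times the library's lowest total were kept apart. Cells were ordered by a diffusion pseudotime (30 neighbours, 14 components) rooted at the earliest late spermatocytes. The resolution, the naming score, the low-UMI limit and the pseudotime weights were chosen after seeing the data.

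UMI counts were summed per library and class, filtered by filterByExpr, TMM-scaled and tested with edgeR 4.0.16 in R 4.3.3, with Benjamini-Hochberg adjustment over all genes of a class. DESeq2 1.42.0 was an alternative. The test was also run on simulated data, with the spread taken from the round spermatid fit. CPM is per 1000000 UMIs of the class or bin. Intervals cover counting error only. p-values measure the spread between 2 mice. The named genes are the 10 members, 5 landmarks, related genes called in spermatids and the 2 genes of the most similar profile. The members and gene lists were chosen with earlier results of these data known.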

Additional observations from a re-analysis of the deposited data

How the results depend on the processing

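No paired analysis was possible because the knockout group has 1 library and no label pairs mice across groups. The count of gene pairs in the same order stayed between 38 and 41 over all alternatives, and between 40 and 41 with a wildtype library left out. That count compares libraries within a setting and does not show that the order is the same across settings. Of 130 recomputed mean onset positions, 61 moved by at least the SD over the libraries. By mean UMIs per cell Odf1 ranked 6 and Odf2 ranked 4, against 10 and 9 by CPM. Genes called moved from 2428, 383 and 1029 (late spermatocytes, round spermatids, elongating spermatids) to 754, 196 and 257 with the DESeq2 Wald test. By the size rule they were 48, 67 and 41, and with a wildtype library left out of that rule 56 to 76, 75 to 123 and 44 to 50. In round spermatids they were 1297 with no filter on low counts (830 higher), 746 with low-UMI clusters included and 1291 with stage-matched bins. With clusters at resolution 1, added after seeing the data, late spermatocytes gave 734 and round spermatids 182. The causes of these moves were not tested, apart from the size rule's own larger limit.

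Of 280 recomputed log2 fold changes of the 10 genes, 222 counted as unchanged and 37 changed sign. For a refit, unchanged means the same direction and the same side of the threshold. Values with a wildtype library left out have no p-value. For them it means the same direction and a shift smaller than the SD of the 2 wildtype libraries. With low-UMI clusters included, late spermatocytes gave Akap3 0.11, Akap4 0.55, Ropn1 0.47, Odf3 0.60, Fsip2 -0.031, Ropn1l -0.016 and Odf4 -0.061, of which Akap4, Ropn1 and Odf3 were then called higher (edgeR adjusted p = 2.88e-09, 5.31e-08 and 3.34e-08). With them round spermatids gave Odf1 -0.040 and elongating spermatids Fsip2 0.021. With stage-matched bins, late spermatocytes gave Akap3 0.15 and Odf3 0.082, round spermatids Fsip2 0.10 and Odf1 -0.041, and elongating spermatids Fsip2 0.092, Ropn1 -0.0075 and Ropn1l 0.043. Clusters at resolution 1 gave Odf2 -0.011, Odf3 0.060 and Odf4 -0.024 in late spermatocytes, Fsip2 0.014 and Odf1 -0.046 in round spermatids and Ropn1l 0.032 in elongating spermatids. With doublets kept, Odf1 was -0.012 in round spermatids, and Fsip2 0.097 and Ropn1 -0.0044 in elongating spermatids. With a wildtype library left out, late spermatocytes ranged from -0.027 to 0.090 for Ropn1l, -0.028 to 0.041 for Odf2 and -0.025 to 0.049 for Odf4. Round spermatids ranged from -0.11 to 0.035 for Fsip2, -0.085 to 0.10 for Odf1 and -0.078 to 0.058 for Odf4. Elongating spermatids ranged from -0.054 to 0.026 for Fsip2, -0.063 to 0.14 for Ropn1, -0.13 to 0.10 for Ropn1l, -0.046 to 0.010 for Odf2, -0.091 to 0.18 for Odf3 and -0.16 to 0.066 for Odf4. Among the results that changed sign, only Akap3, Akap4, Ropn1 and Odf3 in late spermatocytes had been called. The fall of Odf1 in elongating spermatids was called under each of the 8 refits, with values of -0.32 to -0.47, and was -0.41 to -0.32, untested, with a wildtype library left out. The low-UMI clusters, whose inclusion moved the onsets given in the report, hold 54.2%, 39.0% and 63.3% of kept barcodes.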

Other observations

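Some barcodes of few UMIs grouped with elongating spermatids by their markers, 122 and 112 of them from the wildtype mice and 243 from the knockout pool. In these, Odf1 stood at 3595, 3478 and 2910 CPM (907, 696 and 1953 UMIs), far above its 600.2, 576.3 and 475.6 CPM in the elongating spermatid class, and the knockout library was lowest in both. Akap4 stood at 234, 200 and 289 CPM in the same barcodes, below its level in elongating spermatids, and Odf2 at 1356, 1389 and 1404 CPM. Odf1 was therefore high, and Akap4 and Odf2 low, against the elongating class. These barcodes were left out of the main comparisons and entered only the refit and the ordering with low-UMI clusters included. No test was made on them alone.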
